A study of Mus musculus with 30 samples.

Results

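The glucocorticoid receptor gene Nr3c1 and 9 of its well-known direct targets, Ddit4, Fkbp5, Tsc22d3, Klf15, Klf9, Zbtb16, Cebpd, Sgk1 and Glul, were followed in mouse quadriceps, 10 genes out of 56748 in the table of raw counts. The genes were taken by name from a list of receptor targets, with earlier results of these data known, so counts of genes called are descriptions. All 10 had enough counts to be tested, among 17518 genes that passed the filter on low counts. Ddit4 was chosen by its measured level, which was high at the largest dose of the drug. Its values at that dose are therefore a description, with no test of them, and it is left out of the counts and medians over the genes at that dose.

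RNA was sequenced from 30 mice, all injected or left untreated at about 8 weeks of age, with muscle taken 2 weeks after the last injection. WT animals (n = 5) were untreated FVB/N mice. All other animals were homozygous HSA-LR20b mice, a model of myotonic dystrophy type 1 (DM1) in which a human skeletal actin transgene makes an expanded CUG repeat RNA in skeletal muscle. NT animals (n = 8) were HSA-LR20b mice without treatment. The drug pacDNA-L9, a short locked nucleic acid against the repeat (L9) clicked onto a bottlebrush polyethylene glycol polymer, was injected into the tail vein. The lowest dose, 5.3 mg/kg, was given to 4 animals, and the higher doses, 21.2 and 42.4 mg/kg, reached as repeated injections, to 3 animals each. Controls were L9 without polymer at 5.3 mg/kg (free L9, n = 3), the polymer without oligonucleotide at 40 nmol (Brush, n = 2) and the polymer carrying a scrambled oligonucleotide at 5.3 mg/kg (pacDNA-Scr, n = 2). The model expresses the repeat under an actin promoter in muscle fibres and not in the other tissues where patients carry it.

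The glucocorticoid receptor waits in the cytoplasm in a complex with heat shock proteins until a hormone such as corticosterone binds it. It then enters the nucleus and, as a dimer, binds short palindromic DNA elements near its target genes. In skeletal muscle, glucocorticoids are known for restraining protein synthesis, promoting protein breakdown, turning fuel use from glucose to fat and setting the export of glutamine.

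Libraries held between 13605309 and 26956558 counts. The first principal component, with 59.9% of the variance, set 6 libraries that were deposited as a second set (free L9 C, 21.2 mg/kg C, NT 7, NT 8 and the animals D and C of 5.3 mg/kg) apart from the other 24, and every test below had a term for the set. Of the 6, 5 listed all 37 mitochondrial genes at 0. The library free L9 B stood apart on the second component and had counts for the fewest genes, 14485. By Xist and Y-linked counts, 20 animals were female and 10 male. All 3 animals at 42.4 mg/kg were female, against 4 of 8 NT animals, and their libraries were among the 9 whose names carry a running number. Of the NT libraries only NT 6 was among those 9, and the pacDNA-L9 libraries of the lower doses were not. In bulk muscle, fewer cells of one type and less RNA per cell cannot be told apart.

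The DNA elements that the receptor reads are shown first, since they are the sequences through which it is known to bind near its targets. Around the start of the canonical transcript of each gene, 5 kb on either side was read from the GRCm39 genome and searched for the element with arms AGAACA and TGTTCT separated by 3 bases, and for a looser form with arms GNACA and TGTNC, also 3 bases apart. Each element is its own reverse complement, so that 1 strand covers both, and the strict form lies inside the looser one. The strict form was present around 1 of the 10 genes, Sgk1, and around 0.124% of 21757 protein-coding genes. The looser form was found around 5 of the 10, in 6 places, and around 15.5% of all protein-coding genes. The sites are printed on the strand of the gene with the arms in capitals. They are matches of letters, and binding of the receptor to them was not measured.

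The strict site of Sgk1, chr10:21869592-21869622, lay 958 bases before the start of the canonical transcript and within the longer annotated gene.
Sgk1: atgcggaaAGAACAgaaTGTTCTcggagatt
The looser sites in introns were those of Fkbp5 (chr17:28703919-28703947, minus strand, 1219 bases after the start), Klf15 (chr6:90441632-90441660, plus strand, 2205 bases after the start) and Glul (chr1:153777364-153777392, plus strand, 1055 bases after the start).
Fkbp5: ggggctcgGGACAgggTGTACagcgcttg
Klf15: gggtcctgGGACAccaTGTTCcctgcatt
Glul, intron: ttggaggaGAACAataTGTTCcctctcca
A second site of Glul (chr1:153772857-153772885, plus strand) lay 3452 bases before the start, and the site of Cebpd (chr16:15707690-15707718, plus strand) lay 2554 bases after the start, in an untranslated exon part.
Glul, upstream: aagtggagGAACAggcTGTTCttttaatt
Cebpd: gggttcctGGACAtttTGTTCccaacaac
No match was found around Nr3c1, Ddit4, Tsc22d3, Klf9 or Zbtb16, which says only that these letters are not in these windows.

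In the NT animals, read per kilobase of exon, Glul (glutamine synthetase) was the most abundant of the 10 at a mean of 90.7 CPM (counts scaled for library size) per kilobase. It was followed by Tsc22d3 at 40.0, Klf9 at 27.7, Sgk1 at 26.1 and Nr3c1 at 13.5 CPM per kilobase. Ddit4 at 5.79, Zbtb16 at 5.25, Klf15 at 4.71, Fkbp5 at 3.68 and Cebpd at 3.61 CPM per kilobase were the lowest. All other values are CPM after TMM scaling, which are not divided by length and are compared only within a gene.

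**Figure D1:**
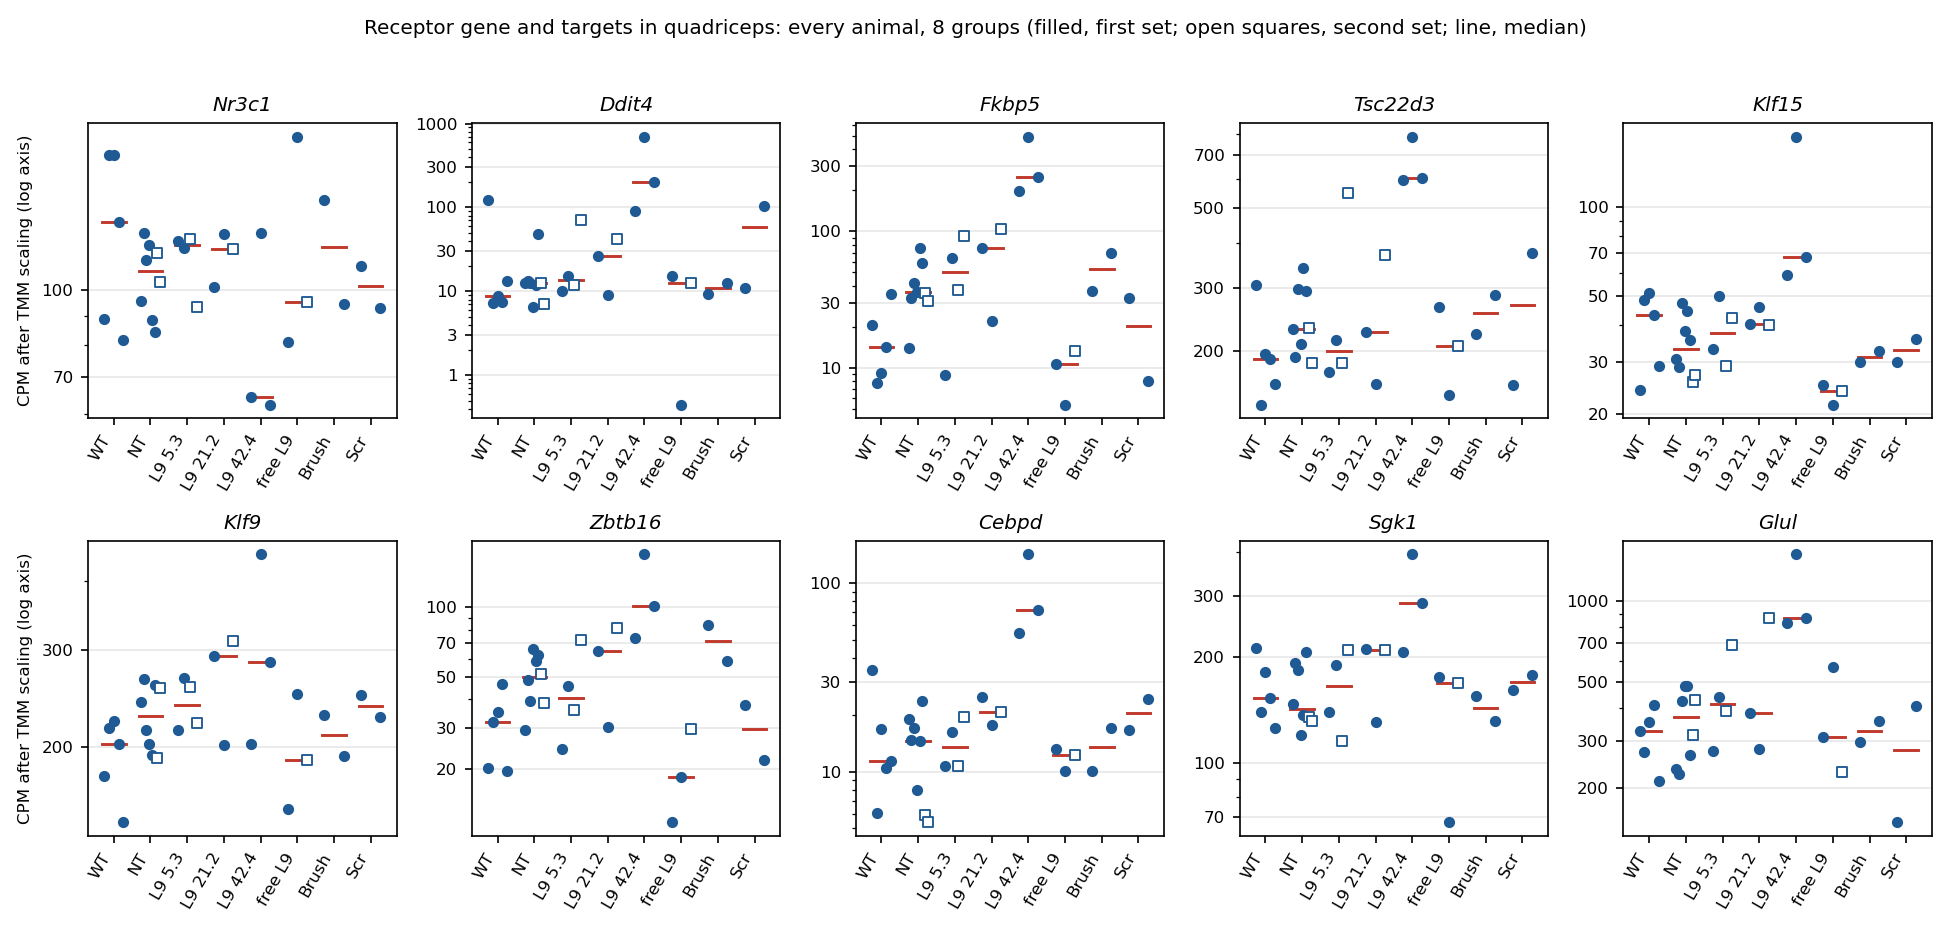
CPM of the 10 genes in each of the 30 animals, on log axes, by group. Filled circles are libraries of the first deposited set, open squares those of the second, and red lines are group medians. For Fkbp5, Tsc22d3, Klf15 and Cebpd the 3 animals at 42.4 mg/kg sit above every animal of the NT group, and for Ddit4 single animals in WT, NT, 5.3 mg/kg and pacDNA-Scr reach from 48.8 to 121 CPM.

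At 42.4 mg/kg, 7 of the 9 target and receptor genes that were tested against NT rose and 0 fell, while 3.14% of all genes tested passed in either direction (edgeR quasi-likelihood test, Benjamini-Hochberg adjusted p below 0.05). The median log2 fold change over these 9 genes was 1.47, against -0.02 over all genes tested. For 7 of the 9, all 3 animals were above all 8 NT animals, as they were for 3.95% of all genes tested. Nr3c1 itself and Klf9 did not pass.

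Fkbp5 encodes a co-chaperone that lowers the affinity of the receptor for its hormone, and is widely used as a readout of receptor activity. Its level was 199, 495 and 251 CPM in the 3 animals at 42.4 mg/kg. In NT animals it ran from 14.0 through a median of 35.8 to 75.9 CPM. The groups did not overlap. The fitted log2 fold change was 3.03 ± 0.55 (SE, adjusted p = 0.00181), an 8.16-fold difference.

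Tsc22d3 (chrX:139440091-139501408, minus strand), also known as GILZ, is an anti-inflammatory leucine zipper protein and a classical receptor target. It was measured at 597, 787 and 604 CPM at 42.4 mg/kg, and between 185 and 339 CPM in NT animals with a median of 231. All 3 treated animals were above all NT animals, and the log2 fold change was 1.48 ± 0.29 (SE, adjusted p = 0.00294).

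Cebpd, a transcription factor of the acute-phase response that takes part in muscle wasting, was at 54.4, 141 and 71.5 CPM at 42.4 mg/kg. NT animals spanned 5.38 to 23.7 CPM with a median of 14.6. Again no NT animal reached the lowest treated animal. The log2 fold change of 2.66 ± 0.39 (SE) had the smallest adjusted p of the tested members, 0.000129, and was called under every alternative setting and with every single animal left out.

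Klf15 encodes a factor that acts with the receptor on amino acid breakdown. It stood at 59.1, 173 and 67.8 CPM at 42.4 mg/kg and between 25.6 and 47.5 CPM, median 33.2, in NT animals. Animal B was far above its group mates, which were themselves above every NT animal. Over all 3, the log2 fold change was 1.47 ± 0.24 (SE, adjusted p = 0.000423) and was 0.81 (adjusted p = 0.0987) without animal B.

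Zbtb16 (chr9:48563141-48748664, minus strand), or PLZF, is a zinc finger repressor. Levels at 42.4 mg/kg were 73.7, 169 and 101 CPM, and those of NT animals ran from 29.5 to 66.2 CPM with a median of 50.0. The groups were separate by a small margin, with a log2 fold change of 1.30 ± 0.31 (SE, adjusted p = 0.0170), and without animal B it was 0.91 (adjusted p = 0.367).

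Sgk1, a kinase that controls ion channels and muscle mass and the gene with the strict element, was at 207, 394 and 287 CPM at 42.4 mg/kg. NT animals lay between 120 and 207 CPM, median 142. The lowest treated animal and the highest NT animal were level to within 0.1 CPM (206.72 against 206.70), so the separation of the groups rests on a margin below counting error. The log2 fold change was 0.92 ± 0.24 (SE, adjusted p = 0.0306), and the call was lost in 5 of the 11 fits that left out 1 animal.

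Glul, which makes glutamine from glutamate and ammonia, was measured at 832, 1499 and 865 CPM at 42.4 mg/kg. In NT animals it was between 225 and 484 CPM with a median of 371. No treated animal fell within the NT range, and the log2 fold change was 1.65 ± 0.33 (SE, adjusted p = 0.00318), and was 1.32 (adjusted p = 0.120) without animal B.

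Ddit4 (chr10:59785491-59788492, minus strand), or REDD1, an inhibitor of mTORC1 that is induced by glucocorticoids, hypoxia and amino acid shortage, was at 90.6, 698 and 199 CPM at 42.4 mg/kg. The NT values ran from 6.51 to 48.8 CPM with a median of 12.6, and 7 of the 8 were at or below 13.4. The fitted log2 fold change was 4.47 ± 0.92 (SE) and was 3.28 without animal B. Since the gene was listed for this rise, nothing is read from its size.

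Klf9 (chr19:23118187-23148497, plus strand), a Krüppel-like factor and clock output gene, was at 202, 446 and 285 CPM at 42.4 mg/kg and between 191 and 265 CPM in NT animals. One treated animal lay inside the NT range. The log2 fold change of 0.46 ± 0.19 (SE) did not pass (adjusted p = 0.250), with an approximate 95% interval from 0.09 to 0.83 before correction.

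Nr3c1, the receptor gene, was at 64.6, 126 and 62.5 CPM at 42.4 mg/kg, against 84.2 to 127 CPM with a median of 108 in NT animals. Animals A and C were below every NT animal, while animal B, in which all the other 9 genes were highest, was near the top of the NT range. The log2 fold change of -0.35 ± 0.26 (SE) did not pass (adjusted p = 0.656), with an approximate 95% interval from -0.86 to 0.16.

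**Figure D2:**
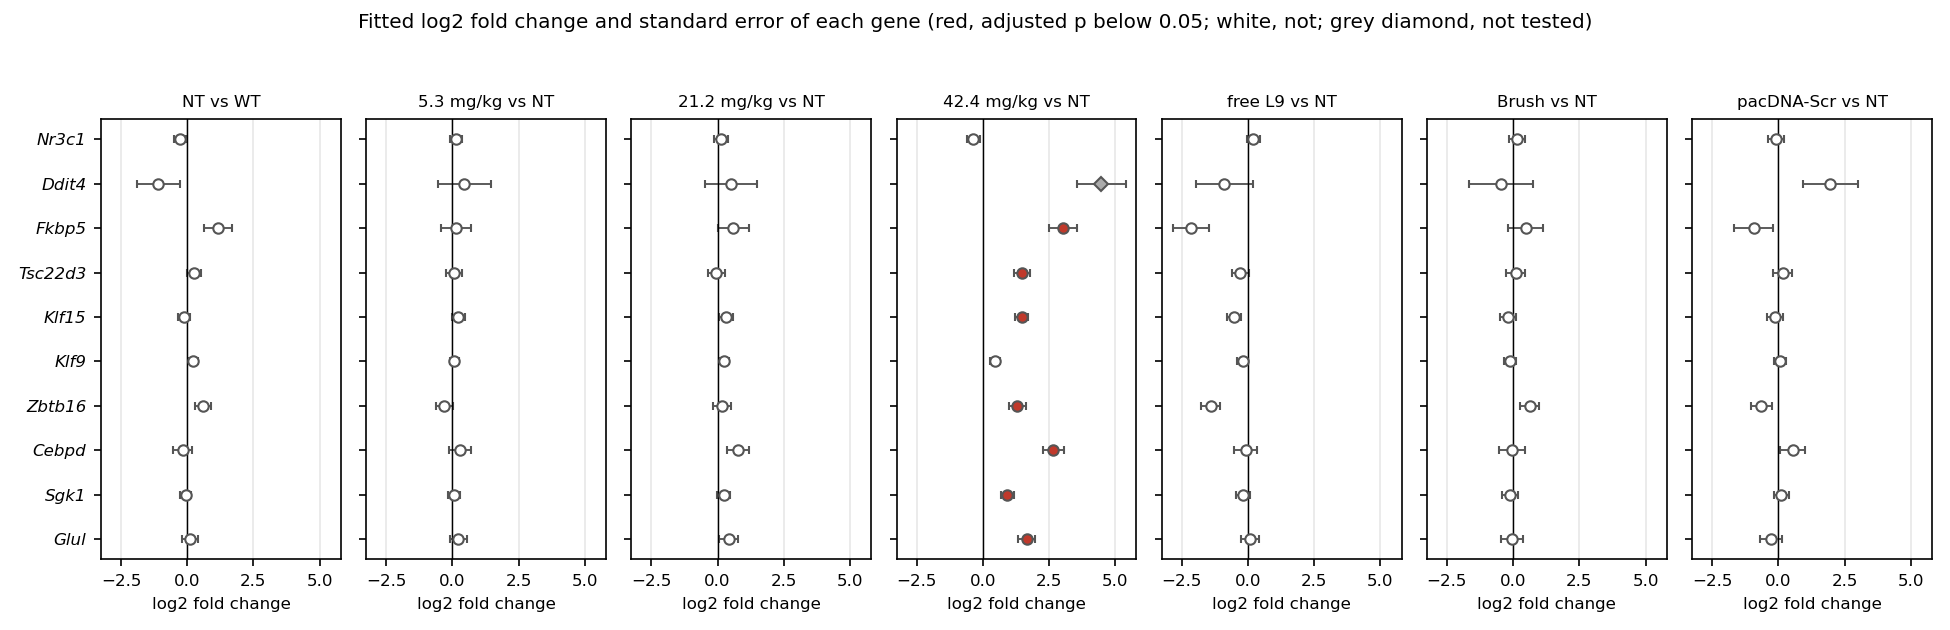
Fitted log2 fold change (horizontal axis) of the 10 genes in 7 comparisons, with standard errors as bars. Red circles passed an adjusted p of 0.05, white circles did not, and the grey diamond marks Ddit4 at 42.4 mg/kg, which was not tested. The 7 red circles are all at 42.4 mg/kg, from 0.92 for Sgk1 to 3.03 for Fkbp5.

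The calls at 42.4 mg/kg depended on which animals were compared and how. Without animal B, 2 of the 7, Fkbp5 and Cebpd, were still called. With female animals alone, which was an alternative chosen after seeing the data, 2 were called, Tsc22d3 and Cebpd. With a term for libraries whose names carry a running number, 3 were called, Klf15, Zbtb16 and Cebpd. In each of these fits the log2 fold change of all 7 stayed above 0, from 0.66 upward without animal B. Sex was a further term in 1 fit, with the 7 genes called as before.

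**Figure D3:**
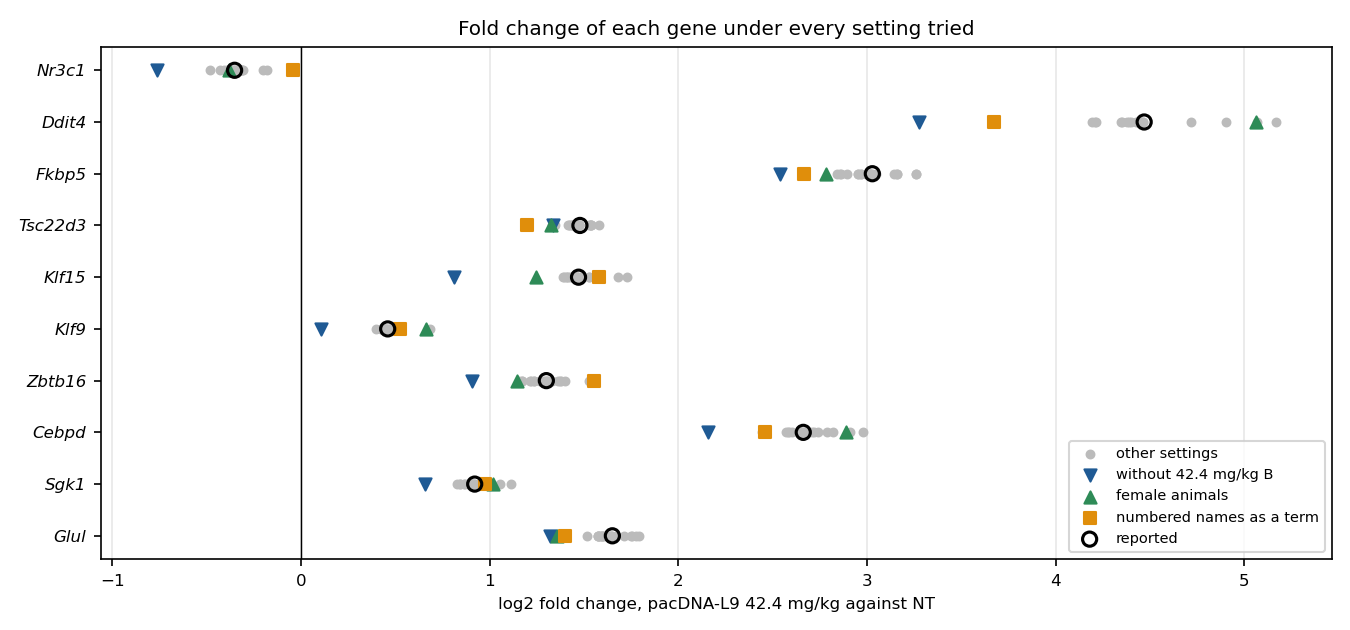
Fitted log2 fold change of each gene at 42.4 mg/kg against NT (horizontal axis) under every setting tried. The open black circle is the reported value, the blue triangle leaves out animal B, the green triangle keeps female animals, the orange square adds a term for numbered library names, and grey dots are all other settings. Leaving out animal B gives the lowest value for every gene but Tsc22d3, as for Klf15 at 0.81.

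At the lower doses none of the 10 genes passed. At 21.2 mg/kg 0 of 10 were called, with 0.0685% of all genes called (12 genes, which became 2 without animal B and 20 without animal A of that dose), and 0 of 10 reached an unadjusted p under 0.05. DESeq2 also called 0 of the 10 there, and 19 genes in all. The log2 fold changes of the 10 genes ran from -0.05 (Tsc22d3) to 0.76 (Cebpd). Fkbp5 was at 75.9, 22.0 and 104 CPM in the 3 animals, which overlapped with NT, and its log2 fold change was 0.60 ± 0.58 (SE), with an approximate 95% interval from -0.55 to 1.74. Cebpd had the largest difference, 0.76 ± 0.41 (SE), from 24.98, 17.7 and 20.7 CPM. For Ddit4 the 3 animals were at 26.1, 8.97 and 42.3 CPM, and the log2 fold change of 0.51 ± 1.00 (SE) had an adjusted p of 1.

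At 5.3 mg/kg the edgeR fit called 0 of the 10 genes and 0% of all genes, with 0 of the 10 at an unadjusted p under 0.05. DESeq2 called 0 of the 10, and 5 genes in all. The log2 fold changes lay between -0.31 (Zbtb16) and 0.45 (Ddit4). Animal D had 71.4 CPM of Ddit4, where its 3 group mates had 10.2, 15.4 and 12.1, and it also had the most Tsc22d3 of its group, 549 CPM against 176, 215 and 186. Its Fkbp5 level of 92.2 CPM was above those of A, B and C, at 8.85, 64.0 and 37.4 CPM.

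The difference between the doses was tested directly, in a comparison chosen after seeing the data. The libraries at 42.4 mg/kg had names with a running number and those at 21.2 mg/kg did not. Dose and whatever that naming stands for therefore cannot be told apart in this comparison. Against 21.2 mg/kg, 0 of 9 members passed at 42.4 mg/kg, where 0.639% of all genes tested passed, although 7 had an unadjusted p under 0.05, as 9.48% of all genes did (edgeR quasi-likelihood test). The smallest adjusted p was that of Tsc22d3, 0.0683, for a log2 difference of 1.53 ± 0.39 (SE). For Fkbp5 the log2 difference was 2.43 ± 0.77 (SE, adjusted p = 0.178) and for Klf15 it was 1.16 ± 0.32 (SE, adjusted p = 0.0922). All 3 animals at 42.4 mg/kg were above all 3 at 21.2 mg/kg for 4 of the 9 genes, and 9.08% of all genes tested showed that.

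HSA-LR mice without treatment did not differ from WT mice in any of the 10 genes by the adjusted p, with 5.31% of all genes called. Fkbp5 was nearest, at 20.8, 7.81, 9.13, 14.2 and 34.8 CPM in the WT animals and a median of 35.8 CPM in NT. The groups overlapped, although 5 of 8 NT animals were above all WT animals. The log2 fold change of 1.15 ± 0.52 (SE) had an unadjusted p of 0.0375 and an adjusted p of 0.259. Zbtb16 had a similar pattern, with 5 of 8 NT animals above the 19.7 to 46.6 CPM of the WT animals, and a log2 fold change of 0.59 ± 0.29 (SE, adjusted p = 0.299). These 2 of 10 members had an unadjusted p under 0.05, as had 16.5% of all genes, and DESeq2 called 0 members. Over the 10 genes the log2 fold changes ran from -1.09 to 1.15.

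For Ddit4, WT animal 1 was at 121 CPM and the other 4 were at 7.25, 8.78, 7.50 and 13.4 CPM. The NT group likewise had a single high animal, NT 6, at 48.8 CPM. Fitted over all animals, the log2 fold change of NT against WT, -1.09 ± 0.82 (SE, adjusted p = 0.582), did not pass, and each group held 1 such animal. Nr3c1 ranged from 81.4 to 175 CPM in WT and from 84.2 to 127 CPM in NT, with a log2 fold change of -0.27 ± 0.22 (SE, adjusted p = 0.603).

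The free L9 group had the lowest mean level of Ddit4, Fkbp5, Klf15, Zbtb16, Cebpd and Sgk1 of the 8 groups, and no member was called by edgeR as fitted here. Fkbp5 was at 10.6, 5.39 and 13.3 CPM, below all 8 NT animals, and Klf15 was at 24.95, 21.5 and 23.9 CPM, also below all of them. That was 2 of 10 genes, where 0.765% of all genes tested had all free L9 animals below all NT animals. Zbtb16 was at 11.8, 18.5 and 29.8 CPM, with the third animal just inside the NT range. The log2 fold changes were -2.16 ± 0.68 (SE, adjusted p = 0.144) for Fkbp5, -0.53 ± 0.26 (SE, adjusted p = 0.380) for Klf15 and -1.41 ± 0.36 (SE, adjusted p = 0.0589) for Zbtb16. By edgeR 0 of 10 members were called and 0.942% of all genes were, while 2 members had an unadjusted p under 0.05, as had 13.8% of all genes. DESeq2 called 2 members, Fkbp5 (adjusted p = 0.0179) and Zbtb16 (adjusted p = 0.00327). Zbtb16 was also called by edgeR in the first set alone (adjusted p = 0.0424), with library size alone (0.0387) and with the libraries at 0 for mitochondrial genes left out (0.0411). The 7 genes other than Fkbp5, Klf15 and Zbtb16 lay between -0.89 (Ddit4) and 0.20 (Nr3c1) on the log2 scale.

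Free L9 B is the library that stood apart, and it held 0.449 CPM of Ddit4 and 67.5 CPM of Sgk1, the lowest values of both genes in all 30 animals. The place of the free L9 group as lowest by mean for these genes rests on this library. Free L9 A and C were at 15.2 and 12.5 CPM of Ddit4, both above the Brush mean of 10.9. For Sgk1 they were at 176 and 169 CPM, both above the NT mean of 157. Without free L9 B, the log2 fold change of Fkbp5 was -1.91 (adjusted p = 0.341) and the adjusted p of Zbtb16 was 0.139. Over the fits that left out 1 animal, the adjusted p of Zbtb16 ran from 0.0284 (without free L9 C) to 0.139.

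The polymer controls gave no calls among the 10 genes. pacDNA-Scr was given at 5.3 mg/kg, and the paper describes the Brush dose as equimolar. No control with polymer alone or with scrambled oligonucleotide was given at 42.4 mg/kg, a dose reached as repeated injections. The part of the polymer amount and of the repeated injections in the values at 42.4 mg/kg was therefore not tested. In the Brush group edgeR called 0 of the 10 members and 0% of all genes, and 0 of the 10 had an unadjusted p under 0.05. DESeq2 called 0 members and 5 genes in all. Fkbp5 was at 36.5 and 69.9 CPM and Ddit4 at 9.26 and 12.5 CPM, both inside the NT range. Zbtb16 was at 83.9 and 58.6 CPM, for a log2 fold change of 0.62 ± 0.37 (SE, adjusted p = 1), the highest of the 10, and the lowest was -0.45 for Ddit4.

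With pacDNA-Scr, again 0 of 10 members and 0% of all genes were called by edgeR, 0 of the 10 had an unadjusted p under 0.05, and DESeq2 called 0 members. The 2 animals differed from each other, and the log2 fold changes ran from -0.93 (Fkbp5) to 1.97 (Ddit4). Ddit4 was at 10.9 CPM in animal A and at 105 CPM in animal B, and the log2 fold change of 1.97 ± 1.02 (SE, adjusted p = 1) became -0.44 without animal B. In the same animal B, Fkbp5 was at 7.96 CPM, below every NT animal, and Tsc22d3 was at 374 CPM, above every NT animal. High Ddit4 thus occurred beside low Fkbp5 in this animal and beside high Fkbp5 in the animals at 42.4 mg/kg. The approximate 95% interval of the Ddit4 difference, from 2 animals, ran from -0.04 to 3.97 on the log2 scale. The 6 comparisons against NT use the same NT animals.

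Ordered by group median, Ddit4 ran from 8.78 CPM in WT through Brush (10.9), free L9 (12.5), NT (12.6), 5.3 mg/kg (13.7), 21.2 mg/kg (26.1) and pacDNA-Scr (57.8) to 199 CPM at 42.4 mg/kg. All neighbours in that order overlapped between animals, and the 42.4 mg/kg group overlapped with single animals of pacDNA-Scr and WT. The order of Fkbp5 was free L9 (10.6), WT (14.2), pacDNA-Scr (20.4), NT (35.8), 5.3 mg/kg (50.7), Brush (53.2), 21.2 mg/kg (75.9) and 42.4 mg/kg (251 CPM). Neighbours overlapped up to 21.2 mg/kg, and the 42.4 mg/kg group was above all other animals. For both genes the order is a description.

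Whether the targets moved together from animal to animal within groups was tested against Fkbp5 in the 24 libraries of the first set, after removing group means. The second set held too few animals of each group for such a test. The relation of Ddit4 is given further on, and it did not pass. None of the other 8 relations passed either (permutation test with 100000 shuffles within groups, two-sided, Benjamini-Hochberg over 9 relations). Zbtb16 had the highest value, r = 0.40 (permutation p = 0.139, adjusted p = 0.329) and rho = 0.44 (permutation p = 0.109), with r = 0.26 without the 2 animals farthest from the median of Fkbp5. Nr3c1 had the lowest, r = -0.33 (permutation p = 0.0969, adjusted p = 0.329) and rho = -0.34 (permutation p = 0.101), with r = -0.40 without the 2 farthest. For Ddit4 the test was read without the animals at 42.4 mg/kg, in the other 21, a choice made after seeing the data. There Pearson's r was 0.24 (permutation p = 0.349, adjusted p = 0.629) and Spearman's rho 0.29 (permutation p = 0.316), with r = 0.24 without the 2 farthest, and the relation did not pass. In the same 21 animals Nr3c1 had r = -0.51 (permutation p = 0.0106, adjusted p = 0.0950), which did not pass either.

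Across the same 24 libraries with groups left in, the 5 genes most like Ddit4 on log2 CPM among 12605 were Nfkbia (r = 0.92), an inhibitor of NF-kB, Bcl2l1 (0.92), an anti-apoptotic protein, Sgk1 (0.90), Mafk (0.88), a small Maf transcription factor, and Depp1 (0.87), a FoxO target. Cebpd came 7th at 0.87 and Tsc22d3 14th at 0.84, while Fkbp5 was 312th at 0.65. The 5 most like Fkbp5 were Car14 (0.90), a carbonic anhydrase, Lrrc30 (0.90), Map3k6 (0.88), Tmem37 (0.88) and Il6ra (0.88), the interleukin-6 receptor. Zbtb16 was 24th in that list at 0.82. Nr3c1 had negative values with both, -0.59 with Ddit4 and -0.51 with Fkbp5. These libraries share the high values of the animals at 42.4 mg/kg, so the values are descriptions. They also include free L9 B, the library that stood apart on the second component. Among the 24, it had the lowest Ddit4 (0.449 CPM), Fkbp5 (5.39 CPM) and Sgk1 (67.5 CPM) and the highest Nr3c1 (188 CPM). The part of free L9 B in the r values and ranks was not tested.

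Of 23 further genes known to respond to glucocorticoids, 13 rose at 42.4 mg/kg and 0 fell, where 2.28% of all genes tested rose. Their median log2 fold change was 1.48, against -0.02 over all genes tested. The list was chosen with earlier results of these data known, so its counts and median are descriptions. The fits without animal B, with females alone or with numbered names as a term were not read for these genes. In the other 5 comparisons against NT and in NT against WT, 0 of the 23 were called. Trim63 (MuRF1), a ubiquitin ligase that marks muscle proteins for breakdown, was between 498 and 2292 CPM against 185 to 260 in NT, a log2 fold change of 2.50 ± 0.28 (SE, adjusted p = 2.27e-06). Metallothioneins, zinc-binding proteins, followed, with Mt2 at 8.91 to 33.8 CPM against 0.0543 to 8.64 (log2 fold change 4.84 ± 0.62) and Mt1 at 240 to 839 CPM against 6.19 to 48.2 (4.57 ± 0.62). Foxo1, a transcription factor of the fasting response, had a log2 fold change of 1.90 ± 0.29, the lipid phosphatase gene Lpin1 one of 1.46 ± 0.22, and the cell cycle inhibitor Cdkn1a one of 2.55 ± 0.40, all with groups that did not overlap. Members of the list that did not pass included Dusp1 at -0.69, Per1 at 0.97 and Bcl6 at 0.06.

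Against 21.2 mg/kg, 7 of these 23 genes were higher at 42.4 mg/kg, where 0.411% of all genes tested were, among them Trim63 (log2 difference 2.71 ± 0.38, adjusted p = 0.000418) and Cdkn1a (3.08 ± 0.55, adjusted p = 0.00688). None of the 9 members passed there, and the difference between the lists was not tested. Here too the naming of the libraries differed between the doses.

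Genes that handle the receptor and its hormone showed no call at 42.4 mg/kg, 0 of 15, with a median log2 fold change of 0.05. They include the chaperones Hsp90aa1 and Hsp90ab1, the hormone-activating enzyme Hsd11b1 (-0.96, adjusted p = 0.471) and H6pd, which supplies its cofactor (0.58, adjusted p = 0.129). The mineralocorticoid receptor gene Nr3c2, which binds the same hormone, had a log2 fold change of -0.28 (adjusted p = 0.599). By unadjusted p, 2 of the 15 were under 0.05, as were 13.1% of all genes tested.

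Around Ddit4, 1 of 13 genes of its family and of mTORC1 signalling passed at 42.4 mg/kg, where 3.14% of all genes tested did. Ddit4l (REDD2), its paralog, fell, from 283 to 350 CPM in NT animals to 88.5 to 183 CPM, with no overlap and a log2 fold change of -1.19 ± 0.23 (SE, adjusted p = 0.00276). None of 8 genes of the integrated stress response passed by edgeR, and 1 had an unadjusted p under 0.05. None of 7 hypoxia genes passed, and 4 had an unadjusted p under 0.05, where 13.1% of all genes tested did. Among the stress response genes, Atf4 had a log2 fold change of 0.34 and Ddit3 one of -0.57. Of the hypoxia genes, Vegfa had -0.72 (adjusted p = 0.140) and Car9 had 1.43 (adjusted p = 0.127). Ankrd37 rose with free L9 (1.32 ± 0.31, adjusted p = 0.0358).

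Of 15 clock genes 14 were tested, and none passed at 42.4 mg/kg, although 6 had an unadjusted p under 0.05 (13.1% of all genes did) and the median log2 fold change was -0.52. Nr1d1, which represses Bmal1, was at -1.42 (adjusted p = 0.0616) and Bmal1 at 1.94 (adjusted p = 0.0694). The time of day at which muscle was taken is not given in the sources used here, and its part in the values of the members was not tested.

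**Figure D4:**
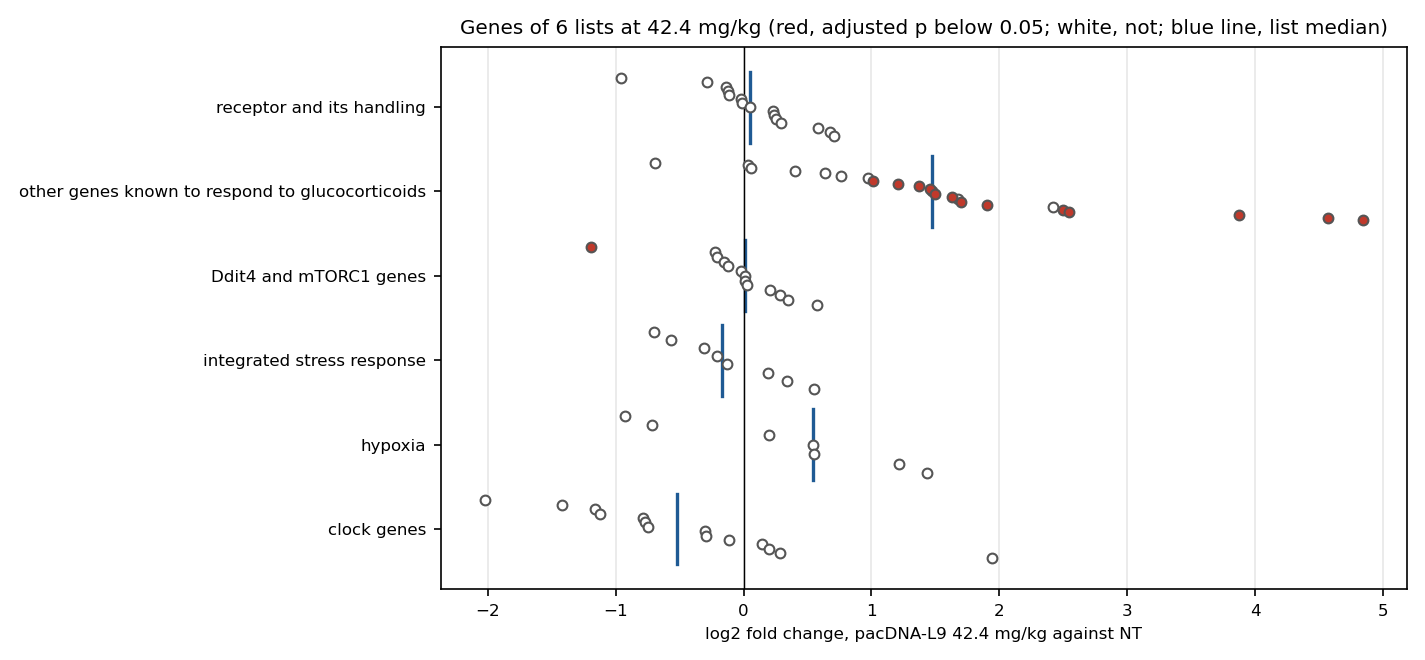
Log2 fold change at 42.4 mg/kg against NT (horizontal axis) of each gene in 6 lists (vertical axis). Red circles passed an adjusted p of 0.05, white circles did not, and the blue line is the median of the list. The 13 red circles among glucocorticoid-responsive genes reach from 1.01 for Foxo3 to 4.84 for Mt2, and the single red circle on the left is Ddit4l at -1.19.

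Markers of other cell types were read in the same libraries. The quadriceps label was matched by high levels of 6 skeletal muscle genes, whose summed level was 115830 to 136900 CPM at 42.4 mg/kg and 117790 to 169190 CPM in NT, with 0 of the 6 called. Of 5 macrophage markers, 3 rose at 42.4 mg/kg (Csf1r, Cd68 and C1qa), where 2.28% of all genes tested rose. The summed level of the 5 was 84.0 to 115 CPM, against 33.3 to 56.7 CPM in NT. At 21.2 mg/kg the sum was 55.1 to 97.5 CPM, at 5.3 mg/kg it was 70.0 to 82.5 CPM and with Brush 79.2 to 83.5 CPM, and no member was called in these groups. Cd68 was also called higher by edgeR at 21.2 mg/kg (adjusted p = 0.0147) and in NT against WT (adjusted p = 0.00163), with no member called in either. None of the markers of adipocytes, endothelium, fibroblasts, satellite cells, nerve sheath or heart muscle that were tested passed at 42.4 mg/kg. All 5 macrophage markers had counts in every NT animal and in every animal at 42.4 mg/kg, while Adgre1 was at 0 in a free L9 animal. Their part in the values of the members was not tested.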

How the data were processed

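Quadriceps poly(A) RNA was sequenced as paired reads. Per the labels the authors aligned them to GRCm39 with HISAT2 2.0.5 and deposited raw counts per gene in 1 table. The study's methods name the Rsubread package. The strand setting is not given in the sources used here. Gene symbols were taken from GENCODE vM39 (56017 of 56748 identifiers matched). The members and gene lists were chosen with earlier results of these data known. The rule took every member in every comparison. Where none was called, members are given by their range, with values for those of the largest differences and for Ddit4 and Fkbp5. Of each list, at most 6 called genes were named by smallest p, and other list genes were examples chosen after their values were seen.

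The counts were fitted in edgeR 4.0.16 (R 4.3.3), with TMM scaling, the filterByExpr filter and the robust quasi-likelihood test. All 30 libraries entered 1 model with group and deposited set as terms, and p-values were adjusted over 17518 genes. Standard errors are the log2 fold change over the root of F. Intervals of 95% are approximate and uncorrected. The study's methods name DESeq2, and DESeq2 1.42.0 was an alternative here. The fit was tested on simulated counts. Depth ranged from 13605309 to 26956558 counts. One WT column could not be tied to a single numbered animal and was used as an unnumbered WT replicate. Sequences were read from the GRCm39 primary assembly by coordinates. Each animal gave 1 library, so p-values measure the spread between animals.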

Additional observations from a re-analysis of the deposited data

Results flagged for a closer look

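Values were compared within each group of 4 to 8 animals for the gap between an extreme animal and its nearest neighbour, in 30 groups of values (10 genes in WT, NT and 5.3 mg/kg). In 5 of them an animal stood apart by Dixon's criterion, which for normally distributed values chance gives in about 1 of 20 groups. CPM values need not be so distributed. Ddit4 accounted for 3: WT 1 at 121 CPM where the next WT animal had 13.4, NT 6 at 48.8 CPM where the next NT animal had 13.4, and 5.3 mg/kg D at 71.4 CPM where the next had 15.4. In the last animal, which belongs to the second deposited set, Tsc22d3 was at 549 CPM with the next animal at 215, and Nr3c1 at 93.3 CPM with the next at 119. WT 1, NT 6 and 5.3 mg/kg D were male by Xist and Y-linked counts, WT 1 and D as the only males of their groups. The part of sex in these values was not tested.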

How the results depend on the processing

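At 42.4 mg/kg the 7 members called against NT became 3 with a term for numbered library names and 2 with female animals alone, and from 2 to 7 with 1 animal left out, the lowest without animal B. Cebpd was called throughout. Sgk1 and Zbtb16 were also lost in the first deposited set (adjusted p = 0.0889 and 0.0583), without a filter on low counts (0.0677 and 0.0672) and with the libraries at 0 for mitochondrial genes left out (0.0843 and 0.0512), and Sgk1 without NT 1, NT 4, NT 5 or 42.4 mg/kg C. The count of all genes called, 550, was 240 with numbered names, 149 in females, 986 without free L9 B and WT 1, and 126 without animal B. Of the free L9 members, 1 (Zbtb16) was called in the first set, with library size alone and with the libraries at 0 for mitochondrial genes left out, and 2 by DESeq2. Leaving out 1 animal gave 0 to 1. All genes called with free L9, 165, became 3 with the 2 groups alone, 525 by DESeq2, 58 without NT 7 and 1360 without free L9 A. Ddit4 with pacDNA-Scr was -0.44 without animal B, 2.82 without animal A and 3.43 in females. The relation of Ddit4 with Fkbp5 was 0.57 with group and sex means removed, in 17 animals that include those at 42.4 mg/kg, for which the gene was chosen, and 0.24 without them and with group means alone removed. The sign turned for Klf9 with Fkbp5 with library size alone (-0.033) and without the 42.4 mg/kg animals (-0.14), and for Klf15 without those animals (-0.023). The causes were not tested. With 2 or 3 animals a group, differences smaller than the intervals given could not be told from 0.

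The replicate numbers of NT and WT were used as a replicate block in 4 pairs. With the block 0 members and 631 genes were called, and 680 genes in the same animals without it. Same-numbered animals correlated at 0.182, 0.00784, 0.0531 and 0.207 in their deviations, and 2 of the 4 pairs did so best with their own number. So few pairs cannot tell whether the numbers pair the animals. With letters as a block, in a fit of the libraries of these 2 doses alone, 0 genes were called between 42.4 and 21.2 mg/kg. The model of all 30 libraries, without the block, called 112. The 2 doses alone were not fitted without the block, so its part in that difference was not tested.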
